A study of Mus musculus with 10 samples.

Results

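The genes described here encode respiratory complexes II to V and cytochrome c, measured in kidneys of mice bred to delete Lkb1 in the tubules. Members were found by symbol in the array's platform annotation, among rows with a single gene symbol. They are Sdha to Sdhd, the genes so found whose symbols start with Uqcr or Atp5, the Cox4 to Cox8 genes, Cyc1 and Cycs. A further 2 rows that name such a gene among several symbols were left out. This rule found 52 of 30142 genes, of which 4 belong to complex II, 9 to complex III, 18 to complex IV, 20 to complex V and 1 is cytochrome c. Of the 52, 41 encode common subunits, 7 encode isoforms known from muscle, lung or testis, 3 are gene copies and 1, Atp5sl, encodes no subunit of complex V despite its symbol.

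Complexes II to IV pass electrons from succinate and ubiquinol to oxygen, with cytochrome c as the mobile carrier between complexes III and IV. Complexes III and IV pump protons across the inner mitochondrial membrane, and complex V, the ATP synthase, lets them flow back to make ATP. Kidney tubules, above all the proximal tubule, the thick ascending limb and the distal convoluted tubule, are rich in mitochondria that power the reabsorption of salt and solutes. The kinase Lkb1 (gene symbol Stk11) switches on AMPK, a sensor of cellular energy.

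Each of 10 arrays held RNA of the whole kidney of 1 mouse at 5 weeks of age. The 5 knockouts, called Lkb1Δtub, carried floxed Lkb1 and the KspCre transgene, in which the Cdh16 promoter drives Cre in tubule epithelium. The 5 controls were littermates without KspCre that were Lkb1flox/+ or Lkb1flox/flox, so effects of the transgene and of Lkb1 loss cannot be told apart. A whole kidney mixes tubule cells with cells outside the tubules, and which cells or segments lost Lkb1 was not measured. Sample titles say knockdown and the strain label says C57Bl/6N, whereas the breeding protocol describes a Cre knockout and a mixed background for the floxed mice. A design note speaks of MDCK cells, a dog kidney line, although every sample is mouse kidney.

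Values are RMA log2 expression values, in which a difference of 1 is a doubling, and no level is compared between genes. The tissue label was checked against segment markers. Umod averaged 12.70 in knockouts and 13.16 in controls, Slc12a1 12.23 in knockouts and 12.58 in controls, Lrp2 12.57 in knockouts and 12.78 in controls, Slc34a1 13.12 in knockouts and 13.23 in controls and Aqp2 11.72 in knockouts and 10.78 in controls. Each of these means exceeded at least 99.1% of the 5222 negative control probe sets on the arrays. Stk11, the targeted gene, measured 9.12, 9.21, 9.07, 9.21 and 9.31 in knockouts 1 to 5, against 9.43, 9.40, 9.48, 9.46 and 9.40 in controls 1 to 5. Every knockout value was below every control value, and the Stk11 difference was -0.25 log2 units (SE 0.05, limma adjusted p = 0.00749), which is 84.1% of the control level. How far retained exons or untargeted cells contribute to the Stk11 value in knockouts was not tested. No 2 arrays held identical values, and any pair of arrays correlated at 0.992 to 0.998 across genes.

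Most genes of complexes II to V had slightly lower mean levels in knockout kidneys, and 6 of the 52 genes fell at an adjusted p under 0.05 (limma, Benjamini-Hochberg over all 30142 genes). Those 6 were Atp5sl, the complex III hinge subunit Uqcrh, the ATP synthase subunits Atp5a1, Atp5f1 and Atp5k, and the complex IV subunit Cox4i1. Their levels in knockouts were 83.6% to 89.7% of those in controls. No member rose. The calls make up 11.5% of the members, against 2.67% of all genes called lower and 5.35% called higher. Among genes above the median level, 12.2% of 49 members were called lower, against 3.97% of 15071 genes called lower and 8.95% called higher.

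The remaining 46 members did not pass the test, but most differences had the same sign. Of the 52 differences, knockout minus control, 44 were negative (84.6%), against 61.8% of all genes and 53.7% of genes above the median level. The median difference was -0.09 for the members and -0.03 for all genes, and the members' range was -0.32 to 0.26. At an unadjusted p under 0.05, 20 members were lower and 2 were higher (all genes 12.0% and 10.9%). In 5 members all knockouts lay below all controls, a pattern that 3.50% of all genes showed, and in 0 members all knockouts lay above all controls, as 5.07% of all genes did. In a whole organ, fewer cells that express a gene and less of its RNA per cell cannot be told apart.

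The number of calls depended on single kidneys and on the scaling of the arrays. It was 2 without knockout 1, 2 or 3 or without control 1, 2 or 3. It was 3 without control 4, 4 without knockout 4, 6 without control 5 and 9 without knockout 5. In these fits 1.45% to 4.88% of all genes were called lower. Centring each array on its median left 1 call, Atp5sl, and quantile normalisation gave 16, with 2.02% and 3.50% of all genes then called lower. With a replicate block on the title numbers, Cox4i1, Atp5f1 and Atp5k missed the threshold, and 3.17% of all genes were called lower. Under every alternative tried at least 38 members had a negative difference, the fewest being without knockout 3.

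**Figure D1:**
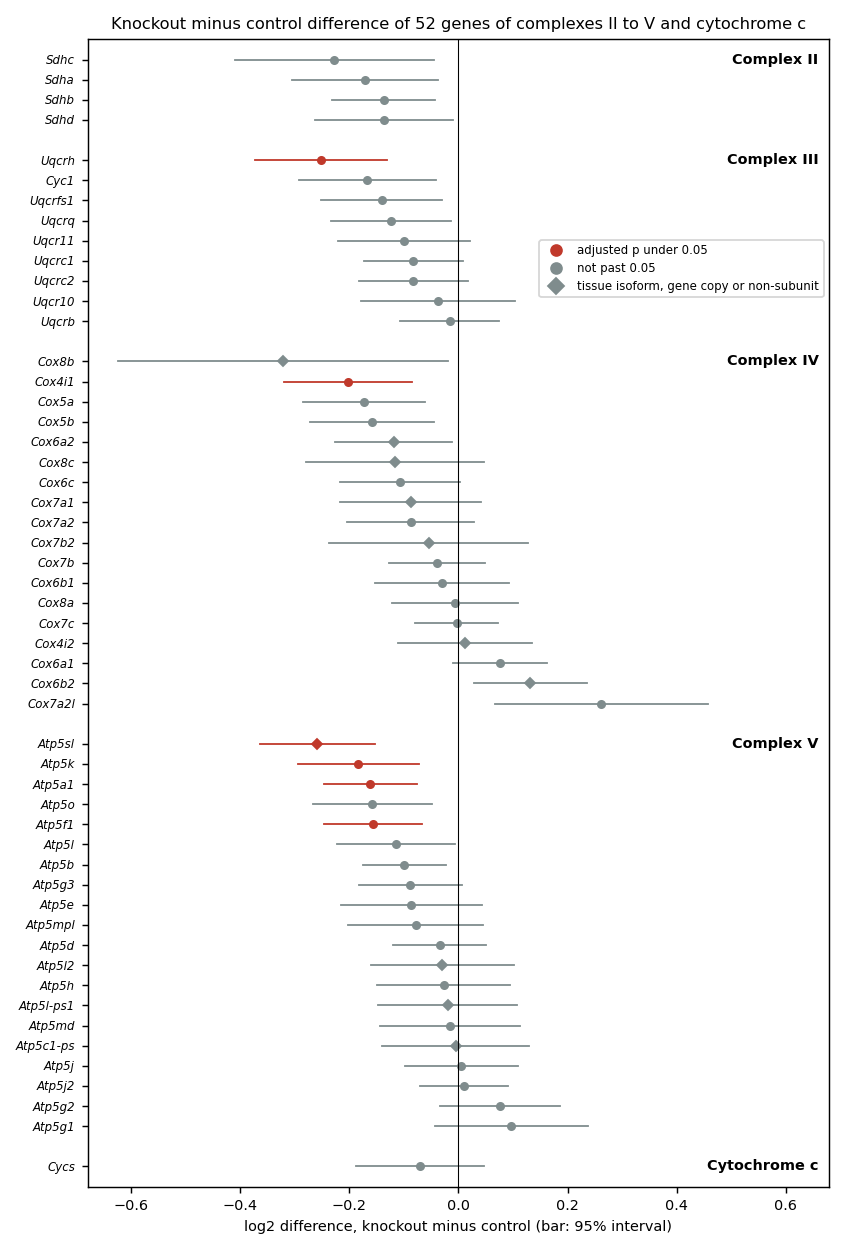
Each point is the log2 difference of 1 gene, knockout minus control, with its 95% interval, grouped by complex and ordered from lowest to highest, with the 6 genes past the threshold in red and diamonds for isoforms, gene copies and Atp5sl. All 4 genes of complex II and all 9 of complex III lie left of 0, and Cox7a2l lies farthest right at 0.26.

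Promoter windows of 300 bases, 250 before to 50 after the annotated start, were available from RefSeq (GRCm38.p6) for 37 of the 52 members, with up to 2 windows for a gene. They were searched on both strands for short motifs of factors known to control respiratory genes. The motifs were GCATGCG (core of the NRF1 site), CCGGAAG (core of the GABP and other ETS sites), AAGGTCA (a half-site of estrogen-related and other nuclear receptors) and AAGATGG (core of the YY1 site). Forward and reverse NRF1 matches overlap where the sequence reads CGCATGCG, and a window with both was counted once. A match is a string of letters, not a site shown to bind the factor.

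The NRF1 core stood in 9 of 40 member windows (22.5%), against 3.58% of 32851 windows of all genes. The GABP/ETS core stood in 13 (32.5%), against 8.86% of all windows. For the nuclear receptor half-site the shares were 12.5% (5 windows) and 4.72%, and for the YY1 core 15.0% (6 windows) and 6.34%. Several windows can belong to 1 gene, and these shares describe sequences, not binding.

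Windows were available for Atp5k, Uqcrh, Atp5f1 and Atp5sl among the 6 genes that fell. The 250 bases before the start are shown for the 3 of them that encode subunits, 5′ to 3′ on the gene's strand, with complete motif matches in capitals. In Atp5k (chr5:108434400-108434649, minus strand) overlapping NRF1 matches begin 49 and 48 bases before the start. In Uqcrh (chr4:116075071-116075320, minus strand) a GABP/ETS match on the opposite strand begins 10 bases before the start. In Atp5f1 (chr3:105959264-105959513, minus strand) no complete match lies upstream, and a YY1 match that begins 2 bases before the start runs past the printed end.
Atp5k: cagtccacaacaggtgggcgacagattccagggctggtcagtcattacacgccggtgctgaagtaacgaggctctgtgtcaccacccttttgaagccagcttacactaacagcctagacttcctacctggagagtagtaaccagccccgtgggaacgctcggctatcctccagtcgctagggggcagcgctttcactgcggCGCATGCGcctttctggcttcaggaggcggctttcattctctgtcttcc
Uqcrh: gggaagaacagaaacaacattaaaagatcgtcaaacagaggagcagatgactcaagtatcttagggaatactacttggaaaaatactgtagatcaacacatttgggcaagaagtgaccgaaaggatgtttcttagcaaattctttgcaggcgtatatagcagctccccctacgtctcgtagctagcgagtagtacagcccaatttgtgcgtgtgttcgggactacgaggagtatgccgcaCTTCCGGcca
Atp5f1: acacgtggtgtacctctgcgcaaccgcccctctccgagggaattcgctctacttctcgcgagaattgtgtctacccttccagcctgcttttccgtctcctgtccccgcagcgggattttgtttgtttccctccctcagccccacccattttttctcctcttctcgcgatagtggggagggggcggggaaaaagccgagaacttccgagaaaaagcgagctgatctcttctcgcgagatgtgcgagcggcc

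Complex II, succinate dehydrogenase, joins the citric acid cycle to the respiratory chain and is built from 4 nuclear genes. All 4 had lower means in knockouts, between -0.23 and -0.14 in log2 units with a median of -0.15, but none passed the adjusted test. Each had an unadjusted p under 0.05. Sdhb, the iron-sulfur subunit, measured 10.42, 10.47, 10.39, 10.50 and 10.60 in knockouts 1 to 5, against 10.63, 10.63, 10.58, 10.63 and 10.59 in controls 1 to 5. Knockouts 1 to 4 lay below every control and knockout 5 lay within the control range. The Sdhb difference was -0.14 (SE 0.04), or 90.9% of control with a 95% interval of 85.2% to 97.1% (adjusted p = 0.0758, exact permutation p = 0.0238). Sdha, the flavoprotein that oxidises succinate, measured 11.21, 11.16, 10.96, 11.15 and 11.30 in knockouts, against 11.30, 11.36, 11.26, 11.45 and 11.26 in controls. Knockout 3 was lowest and knockout 5 lay among the controls. The Sdha difference was -0.17 (SE 0.06, adjusted p = 0.115, exact permutation p = 0.0238).

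The membrane anchors of complex II, which bind ubiquinone, are Sdhc and Sdhd. Sdhc measured 9.64, 9.88, 9.44, 9.74 and 9.83 in knockouts, against 10.14, 9.97, 9.89, 9.85 and 9.82 in controls. Knockout 3 was again lowest, and the groups overlapped. The Sdhc difference was -0.23 (SE 0.08, adjusted p = 0.124, exact permutation p = 0.0476). Sdhd measured 10.85, 11.00, 10.84, 11.01 and 11.00 in knockouts, against 11.13, 11.21, 11.03, 11.08 and 10.93 in controls. These groups overlapped too, and the difference was -0.14 (SE 0.06, adjusted p = 0.180, exact permutation p = 0.0635). Sdhb passed the adjusted test under 4 of 19 alternatives, Sdha under 2, Sdhd under 1 and Sdhc under 0.

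Complex III, which passes electrons from ubiquinol to cytochrome c, held 1 call among 9 nuclear subunits, and all 9 differences were negative (median -0.10). The share called lower was 11.1%, against 2.67% of all genes. Uqcrh, the acidic hinge protein beside cytochrome c1, measured 9.64, 9.73, 9.49, 9.75 and 9.76 in knockouts 1 to 5, against 9.98, 9.99, 9.91, 9.91 and 9.84 in controls 1 to 5. All knockouts lay below all controls, with knockout 3 lowest. Uqcrh fell to 84.0% of control (95% interval 77.2% to 91.4%), or -0.25 in log2 units with an SE of 0.06 (adjusted p = 0.0159, exact permutation p = 0.00794, the smallest that 5 against 5 kidneys allow). It remained past the threshold without any single kidney and missed it when arrays were centred on their medians (adjusted p = 0.0529). Uqcrh lies on chromosome 4 at 116066965 to 116075070 (GRCm38.p6).

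The redox subunits of complex III had lower means without passing the test. Cyc1, cytochrome c1, measured 9.94, 9.98, 9.91, 10.08 and 10.10 in knockouts, against 10.31, 10.27, 10.10, 10.12 and 10.06 in controls. The groups overlapped, and the difference was -0.17 (SE 0.06, adjusted p = 0.101, exact permutation p = 0.0397). Uqcrfs1, the Rieske iron-sulfur protein, measured 7.75, 7.86, 7.86, 7.94 and 7.93 in knockouts, against 8.01, 8.11, 7.91, 8.06 and 7.96 in controls. Its difference was -0.14 (SE 0.05, adjusted p = 0.116, exact permutation p = 0.0317), again with overlap. Uqcrq, a small subunit next to cytochrome b, measured 9.29, 9.34, 9.31, 9.30 and 9.43 in knockouts, against 9.38, 9.58, 9.48, 9.50 and 9.34 in controls. For Uqcrq the difference was -0.12 (SE 0.05, adjusted p = 0.168, exact permutation p = 0.0556).

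The core proteins of complex III, which face the matrix, had smaller differences. Uqcrc1 measured 11.18, 11.26, 11.12, 11.26 and 11.30 in knockouts, against 11.29, 11.35, 11.31, 11.33 and 11.27 in controls, a difference of -0.08 (SE 0.04, exact permutation p = 0.0317, adjusted p = 0.262). Uqcrc2 measured 10.95, 11.01, 10.91, 11.07 and 11.11 in knockouts, against 11.06, 11.11, 11.03, 11.13 and 11.12 in controls, a difference of -0.08 (SE 0.05, exact permutation p = 0.0873, adjusted p = 0.306). Knockouts 1 and 3 gave the lowest values of both genes. The small subunits Uqcr11, Uqcr10 and Uqcrb had differences of -0.10, -0.04 and -0.02, with adjusted p-values of 0.308, 0.770 and 0.849.

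Complex IV, cytochrome c oxidase, held 1 call among 18 genes, and its members pointed both ways, 14 below and 4 above 0 (median -0.07). The share called lower was 5.56%, against 2.67% of all genes and 3.97% of genes above the median level. Cox4i1, the widely expressed isoform of subunit 4, measured 8.30, 8.33, 8.27, 8.41 and 8.52 in knockouts 1 to 5, against 8.67, 8.58, 8.56, 8.54 and 8.49 in controls 1 to 5. Knockouts 1 to 4 lay below every control, and knockout 5 exceeded control 5. Cox4i1 fell to 86.9% of control (95% interval 80.1% to 94.2%), or -0.20 in log2 units with an SE of 0.05 (adjusted p = 0.0379, exact permutation p = 0.0159). It passed without knockout 5 or control 5, and missed the threshold without each of the other kidneys, with adjusted p-values up to 0.0940. It lies on chromosome 8 at 120668225 to 120674209 (GRCm38.p6).

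Cox5a and Cox5b, nuclear subunits of complex IV on the matrix side, came next in the order of p-values. Cox5a measured 10.21, 10.28, 10.19, 10.36 and 10.31 in knockouts, against 10.56, 10.51, 10.44, 10.36 and 10.34 in controls. Cox5b measured 10.33, 10.40, 10.25, 10.47 and 10.52 in knockouts, against 10.55, 10.55, 10.57, 10.61 and 10.50 in controls. In both genes the ranges of the groups overlapped. The Cox5a difference was -0.17 (SE 0.05, adjusted p = 0.0599, exact permutation p = 0.0159) and the Cox5b difference was -0.16 (SE 0.05, adjusted p = 0.0850, exact permutation p = 0.0159).

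The most positive difference of all 52 members was that of Cox7a2l, known as the factor that joins complexes III and IV into supercomplexes. Cox7a2l measured 9.27, 9.41, 9.49, 9.24 and 9.40 in knockouts, against 8.74, 9.27, 9.10, 9.23 and 9.16 in controls. The controls spread more widely than the knockouts (SD 0.11 in knockouts and 0.21 in controls), control 1 was lowest at 8.74, and the groups overlapped. The difference of 0.26 (SE 0.09) did not pass the adjusted test (adjusted p = 0.0985, exact permutation p = 0.0159) in the analysis given or under any of 19 alternatives. Cox6b2, a testis isoform, measured 7.38, 7.50, 7.50, 7.53 and 7.52 in knockouts, against 7.43, 7.29, 7.29, 7.44 and 7.33 in controls, a difference of 0.13 (SE 0.05, exact permutation p = 0.0238, adjusted p = 0.118). Cox6a2, the heart and muscle isoform of subunit 6A, measured 6.55, 6.38, 6.49, 6.49 and 6.40 in knockouts, against 6.57, 6.68, 6.61, 6.52 and 6.52 in controls, a difference of -0.12 (SE 0.05, exact permutation p = 0.0397, adjusted p = 0.173). The groups overlapped for both isoforms.

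Other genes of complex IV did not pass the test. Log2 differences are given in parentheses. The common subunits Cox6c (-0.11), Cox7a2 (-0.09), Cox7b (-0.04), Cox6b1 (-0.03), Cox8a (-0.01), Cox7c (-0.0033) and Cox6a1 (0.08) were tested with adjusted p-values of 0.230 and above. The liver-type subunit Cox6a1 had the only positive difference among them. Of the remaining isoforms, Cox4i2, known from lung, differed by 0.01 and the heart and muscle isoform Cox7a1 by -0.09. Cox8b (-0.32), Cox8c (-0.12) and Cox7b2 (-0.05) were dim on the arrays. Their knockout means exceeded 43.5%, 55.0% and 17.0% of negative control probe sets, and their control means 51.3%, 57.8% and 18.4%.

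Complex V, the ATP synthase, held 4 of the 6 calls among its 20 genes, and 16 of the 20 differences were negative (median -0.06). Of the 16 common subunits among them, 3 were called lower (18.75%), against 2.67% of all genes and 3.97% of genes above the median level. Differences were negative in 12 of these 16 (75%), against 61.8% of all genes and 53.7% of genes above the median level. Atp5sl had the smallest p of all members. RefSeq names it Dmac2, a factor known for the assembly of complex I, so its call is not one of an ATP synthase subunit. Atp5sl measured 8.45, 8.51, 8.47, 8.44 and 8.56 in knockouts 1 to 5, against 8.81, 8.87, 8.74, 8.64 and 8.68 in controls 1 to 5. All knockouts lay below all controls. Atp5sl fell to 83.6% of control (95% interval 77.7% to 89.9%), or -0.26 in log2 units with an SE of 0.05 (adjusted p = 0.00680, exact permutation p = 0.00794). It passed under all 19 alternatives, with adjusted p-values of 0.00358 to 0.0255. Atp5sl lies on chromosome 7 at 25619414 to 25625550 (GRCm38.p6).

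Of the catalytic head of the ATP synthase, Atp5a1, the alpha subunit, fell to 89.4% of control (95% interval 84.3% to 94.9%). Atp5a1 measured 12.10, 12.09, 12.04, 12.16 and 12.15 in knockouts, against 12.31, 12.27, 12.27, 12.29 and 12.21 in controls, with no overlap. The Atp5a1 difference was -0.16 (SE 0.04, adjusted p = 0.0251, exact permutation p = 0.00794). Its partner Atp5b, the beta subunit that carries the catalytic sites, measured 11.57, 11.57, 11.55, 11.64 and 11.62 in knockouts, against 11.70, 11.70, 11.66, 11.70 and 11.70 in controls. The groups did not overlap here either, but the difference of -0.10 (SE 0.04) missed the adjusted threshold (adjusted p = 0.111, exact permutation p = 0.00794). Atp5a1 passed without knockout 4, knockout 5 or control 5 and missed the threshold without each of the other kidneys, with adjusted p-values up to 0.0729.

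In the peripheral stalk, which holds the head still, Atp5f1 fell to 89.7% of control (95% interval 84.3% to 95.4%). Atp5f1, named Atp5pb by RefSeq, encodes subunit b of that stalk. It measured 9.91, 10.01, 9.91, 10.05 and 10.03 in knockouts, against 10.17, 10.17, 10.11, 10.10 and 10.13 in controls, with no overlap. The Atp5f1 difference was -0.16 (SE 0.04, adjusted p = 0.0363, exact permutation p = 0.00794), and it passed without knockout 4 or 5 but missed the threshold without each of the other kidneys (adjusted p up to 0.0918). Atp5o, the stalk subunit also called OSCP, measured 9.21, 9.33, 9.26, 9.35 and 9.38 in knockouts, against 9.52, 9.56, 9.45, 9.44 and 9.34 in controls. Its groups overlapped, and the difference of -0.16 (SE 0.05) did not pass (adjusted p = 0.0783, exact permutation p = 0.0238).

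In the membrane part, Atp5k, subunit e of the interface between ATP synthase dimers, fell to 88.1% of control (95% interval 81.5% to 95.1%). Atp5k measured 7.23, 7.23, 7.15, 7.33 and 7.37 in knockouts, against 7.44, 7.50, 7.52, 7.37 and 7.41 in controls. Knockouts 1 to 4 lay below every control, and knockout 5 lay just above control 4. The Atp5k difference was -0.18 (SE 0.05, adjusted p = 0.0464, exact permutation p = 0.0159), and it passed without knockout 5 or control 4 but missed the threshold without each of the other kidneys (adjusted p up to 0.112). Atp5g1, Atp5g2 and Atp5g3 encode the same c subunit of the rotor ring from separate genes. Atp5g1 and Atp5g2 had positive differences of 0.10 and 0.08, Atp5g3 had a negative one of -0.09, and none passed the test.

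**Figure D2:**
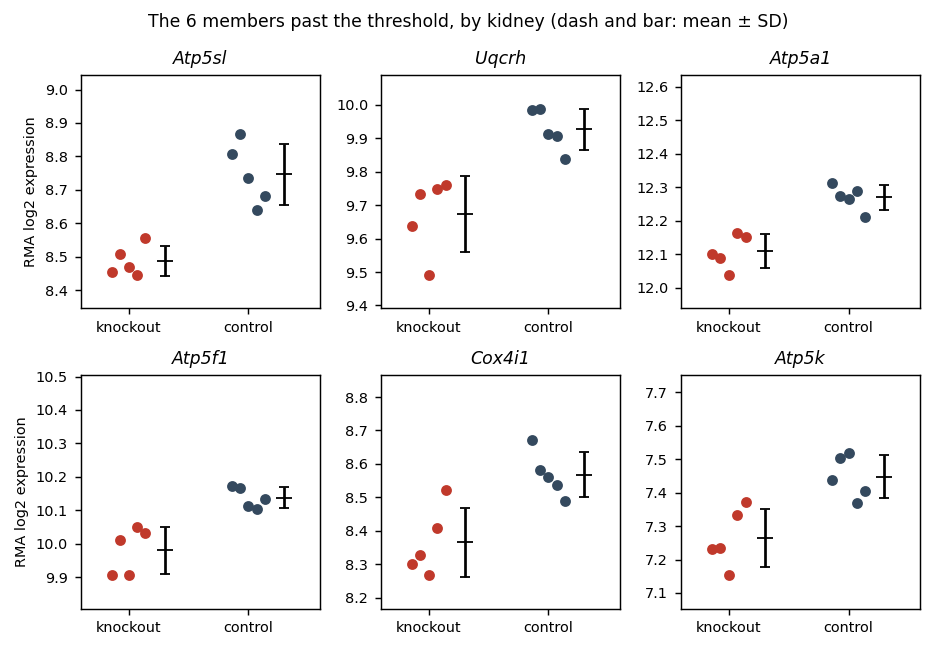
RMA log2 expression of the 6 genes that fell, 1 dot for each kidney, with knockouts in red left of controls in blue and replicates 1 to 5 from left to right. Dash and bar give the mean and SD over 5 kidneys, and every panel spans the same height in log2 units. Atp5sl, Uqcrh, Atp5a1 and Atp5f1 show no overlap, whereas knockout 5 reaches the lowest controls in Cox4i1 and Atp5k.

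The remaining ATP synthase genes did not pass the test. Log2 differences were -0.11 for Atp5l (subunit g), -0.09 for Atp5e (epsilon), -0.08 for Atp5mpl, -0.03 for Atp5d (delta), -0.03 for Atp5h (subunit d), -0.02 for Atp5md, 0.01 for Atp5j (coupling factor 6) and 0.01 for Atp5j2 (subunit f). Their adjusted p-values were 0.191 and above. The gene copies Atp5l2, Atp5l-ps1 and Atp5c1-ps differed by -0.03, -0.02 and -0.01, and a near-identical copy can share probes with its parent gene. The gamma subunit gene Atp5c1 had no row with its symbol alone and was not analysed here.

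Cytochrome c itself did not pass the test. Cycs measured 10.91, 10.93, 10.81, 11.07 and 10.89 in knockouts 1 to 5, against 10.95, 11.07, 10.92, 10.94 and 11.09 in controls 1 to 5, with overlap. The Cycs difference was -0.07 (SE 0.05, adjusted p = 0.466, exact permutation p = 0.175). That value averages 2 array rows. The row on chromosome 6, where RefSeq places Cycs, averaged 10.63 ± 0.10 in knockouts and 10.63 ± 0.10 in controls (SD, n = 5 each). The other row, whose identifier names chromosome 19, averaged 11.21 ± 0.11 in knockouts and 11.36 ± 0.10 in controls, a difference of -0.14. From the row on the gene's own chromosome alone, the Cycs difference was 0.0031.

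In 3 ATP synthase genes several rows were also averaged. The 3 rows of Atp5l had differences of -0.08, -0.18 and -0.09, the first of them on chromosome 5 rather than 9. The rows of Atp5d differed in sign, with -0.09 for the dim one and 0.02 for the bright one. Both rows of Atp5g2, one of them on chromosome 7 rather than 15, were positive (0.07 and 0.08).

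The 5 knockouts did not share the lower levels equally. Over the 41 common subunits, the mean deviation from the control mean was -0.14, -0.06, -0.16, -0.03 and -0.01 in knockouts 1 to 5, against -0.01, 0.04, -0.03, 0.02 and -0.02 in controls 1 to 5. Knockouts 1 and 3 were lowest, and knockout 5 lay within the range of the controls. Of the 52 members, 41, 39, 43, 32 and 32 lay below their control mean in knockouts 1 to 5, against 29, 13, 37, 20 and 30 in controls 1 to 5. Control 3 thus had more members below the control mean than knockouts 4 and 5. Over all genes the mean deviation was between -0.02 and 0.0017 in the knockouts and between -0.02 and 0.02 in the controls.

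The same means were taken for each complex. For complex II the kidney means were -0.21, -0.11, -0.33, -0.14 and -0.06 in knockouts 1 to 5, and controls ranged from -0.09 to 0.07. For complex III they were -0.17, -0.09, -0.21, -0.06 and -0.03 in knockouts, with controls between -0.06 and 0.07. In complex IV, knockouts had -0.11, -0.03, -0.09, 0.0024 and 0.02, with controls between -0.04 and 0.04. In complex V, knockouts had -0.12, -0.05, -0.13, -0.01 and 0.0029, with controls between -0.02 and 0.02. Knockout 5 overlapped the controls in each of the 4 complexes. No test of a difference between complexes was made.

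**Figure D3:**
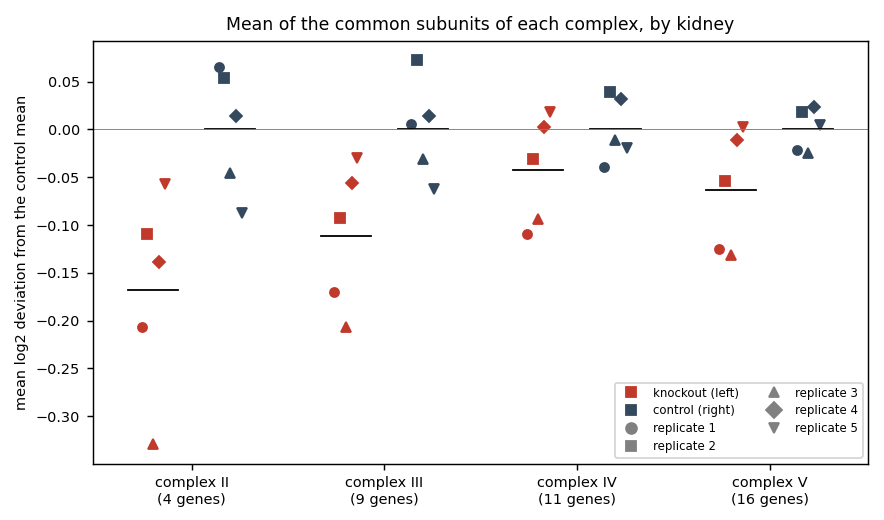
Mean log2 deviation of the common subunits of each complex from their control mean, 1 symbol for each kidney, with knockouts in red left of controls in blue and lines at the group means. Symbols name the replicate number, which was not taken to pair a knockout with a control, as the labels do not state it. Knockout 3 lies lowest in complexes II, III and V, and knockout 1 lies lowest in complex IV.

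The mitochondrial genome encodes further subunits of complexes III to V, and 2 of 6 listed could be read from rows with a single gene. COX1 averaged 9.53 ± 0.07 in knockouts and 9.49 ± 0.10 in controls and COX2 6.76 ± 0.04 in knockouts and 6.69 ± 0.07 in controls (SD, n = 5 each). These core subunits of complex IV had differences of 0.04 and 0.07 and did not pass the test (adjusted p = 0.682 and 0.400). The COX2 means exceeded only 83.2% of negative control probe sets in knockouts and 82.1% in controls. For COX1 these shares were 98.6% in knockouts and 98.6% in controls.

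A list of genes for the assembly of complex IV held 4 calls, all lower, among 21 genes, with a median difference of -0.07. Besides assembly factors, the list includes genes that act on mitochondrial RNA or its translation. The called Taco1 and Lrpprc are of that kind, so the 4 calls are not all of assembly factors. The 3 with the smallest p were Cox11, Taco1 and Lrpprc. Cox11, which delivers copper to subunit 1, averaged 8.13 ± 0.10 in knockouts and 8.42 ± 0.10 in controls (difference -0.29, SE 0.06, adjusted p = 0.0102). Taco1, an activator of COX1 translation, averaged 8.66 ± 0.15 in knockouts and 8.98 ± 0.09 in controls (-0.32, SE 0.07, adjusted p = 0.0159). Lrpprc, which stabilises mitochondrial messenger RNA, averaged 9.28 ± 0.14 in knockouts and 9.53 ± 0.06 in controls (-0.25, SE 0.06, adjusted p = 0.0295). The count of 4 became 2 without knockout 1 or 2 or control 1, 2, 3 or 5 and 7 without knockout 5, and it was 2 with array median centring. Without 1 kidney, Cox11 and Taco1 passed in 10 of 10 fits and Lrpprc in 4. None of the 4 assembly factors of complex II, the 4 of complex III and the 5 listed for complex V passed the test. Those with the smallest p were Sdhaf3 for complex II (-0.23, adjusted p = 0.135), Ttc19 for complex III (-0.13, adjusted p = 0.0923) and Atpaf1 for complex V (-0.20, adjusted p = 0.0832). Without knockout 5 these lists held 2, 1 and 2 calls, all lower, and 4.88% of all genes were then called lower.

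Genes around cytochrome c held 1 call among 5, and it was higher, as were 5.35% of all genes. Apaf1, which binds released cytochrome c to form the apoptosome, averaged 6.92 ± 0.06 in knockouts and 6.67 ± 0.04 in controls, a difference of 0.25 (SE 0.04, adjusted p = 0.00475).

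The citric acid cycle supplies complex II with succinate. A list of genes of this cycle and of pyruvate dehydrogenase had 5 of 16 genes lower and 0 higher, with a median difference of -0.15. Of all genes, 2.67% were called lower and 5.35% higher. Dlat, a pyruvate dehydrogenase subunit, is among the 5 and is named for that reason. Sucla2, a subunit of succinyl-CoA synthetase, averaged 9.86 ± 0.08 in knockouts and 10.10 ± 0.02 in controls (-0.24, SE 0.04, adjusted p = 0.00565). Idh2, the mitochondrial NADP-dependent isocitrate dehydrogenase, averaged 10.66 ± 0.07 in knockouts and 10.89 ± 0.06 in controls (-0.23, SE 0.05, adjusted p = 0.0101). Dld, the shared E3 subunit of the 2-oxoacid dehydrogenases, averaged 11.45 ± 0.08 in knockouts and 11.62 ± 0.04 in controls (-0.17, SE 0.04, adjusted p = 0.0332). With 1 kidney left out, the count of 5 ranged from 2 to 7. It became 2 without knockout 1, 2 or 3 or control 3, and 3 without any other control. Sucla2 and Idh2 passed in all 10 of these fits with 1 kidney left out, and Dld in 4. The count was 10 with quantile normalisation, 8 among genes above the median level, 3 with no variance trend and 1 with array median centring.

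Among regulators of mitochondrial biogenesis, 2 of 14 fell and 0 rose, with a median of -0.19. Of all genes, 2.67% were called lower and 5.35% higher. Esrrg, the nuclear receptor estrogen-related receptor gamma, averaged 8.47 ± 0.08 in knockouts and 8.80 ± 0.06 in controls, a difference of -0.32 (SE 0.05, adjusted p = 0.00160). Tfam, the packaging and transcription factor of mitochondrial DNA, averaged 7.89 ± 0.13 in knockouts and 8.16 ± 0.06 in controls, a difference of -0.27 (SE 0.06, adjusted p = 0.0190). Gabpa, Nrf1 and Yy1, whose products give their names to the other promoter motifs, had differences of -0.16, -0.06 and 0.02 and did not pass (adjusted p = 0.166, 0.442 and 0.769). These 3 were picked for that link. The count of 2 became 1 without knockout 1 or 2, when Tfam missed the threshold (adjusted p up to 0.0514), and 5 without knockout 5. It was also 5 with quantile normalisation and 4 with array weights.

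Markers of tubule segments and of other cells moved in the same kidneys, and their part in the respiratory differences was not tested. For comparison with the counts below, 2.67% of all genes were called lower and 5.35% higher. Of 13 thick ascending limb markers, 10 were lower (median of the list -0.45), led by Egf (-0.96), Umod (-0.45) and Ptger3 (-0.86). One marker, Cldn16, was higher (0.45). The uncalled 4930558C23Rik was dim, with means above 16.0% of negative control probe sets in knockouts and 17.2% in controls. Of 10 distal convoluted tubule markers, 5 were lower (median -0.27), led by Slc8a1 (-0.53), Calb1 (-0.54) and Pvalb (-0.65). That count of 5 was 3 without knockout 1, 2 or 3 or control 1 or 4, and 3 with array median centring. Of 11 intercalated cell markers, 8 were lower (median -0.50), led by Slc4a1 (-0.74), Aqp6 (-0.94) and Atp6v0d2 (-0.54). Of 21 proximal tubule markers, 6 were lower (median -0.10), led by Slc13a3 (-0.42), Slc7a13 (-0.54) and Slc22a12 (-0.36). Principal cell markers went both ways, with 1 of 11 lower, Scnn1a (-0.39), and 2 higher, Aqp3 (0.54) and Aqp2 (0.94), the higher ones being 4 without knockout 5. Mean marker deviations ranged from -0.60 to -0.33 in knockouts and from -0.12 to 0.05 in controls for the thick ascending limb. For the proximal tubule they ranged from -0.29 to -0.04 in knockouts and from -0.04 to 0.07 in controls. Knockout 3 was lowest in both lists, as it was for complexes II, III and V.

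Markers of macrophages and fibroblasts were higher, and 5.35% of all genes were called higher. Of 18 macrophage markers, 17 rose (median 0.80), led by Lyz2 (2.38), Mpeg1 (1.47) and Adgre1 (0.95), and of 13 fibroblast markers, 10 rose (median 1.21), led by Dpt (2.41), Dcn (1.33) and Col1a1 (1.21). Mean deviations of macrophage markers were 1.10, 1.05, 1.21, 0.68 and 0.50 in knockouts 1 to 5, and those of fibroblast markers were 1.09, 1.32, 1.34, 0.72 and 0.68. Controls ranged from -0.09 to 0.16 for macrophages and from -0.20 to 0.08 for fibroblasts. Knockouts 4 and 5, closest to the controls in the respiratory genes, had the lowest of these means, and knockout 3 had the highest of both. Of 8 lymphocyte markers, 2 rose, Cd4 (0.95) and Cd3e (0.33), and 1 did without knockout 1, 2 or 3. No endothelial (9), podocyte (6), muscle (11) or adipocyte (9) marker passed the limma test, and at an unadjusted p under 0.05 these lists held 1, 0, 1 and 1 genes. Their smallest p-values belonged to Kdr (-0.18), Ptpro (-0.13), Myh6 (-0.11) and Plin4 (0.23). Adipocyte markers were uneven among controls, with mean deviations of -0.31, 0.13, 0.03, 0.51 and -0.36 in controls 1 to 5. Those of the knockouts ranged from -0.13 to 0.02.

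**Figure D4:**
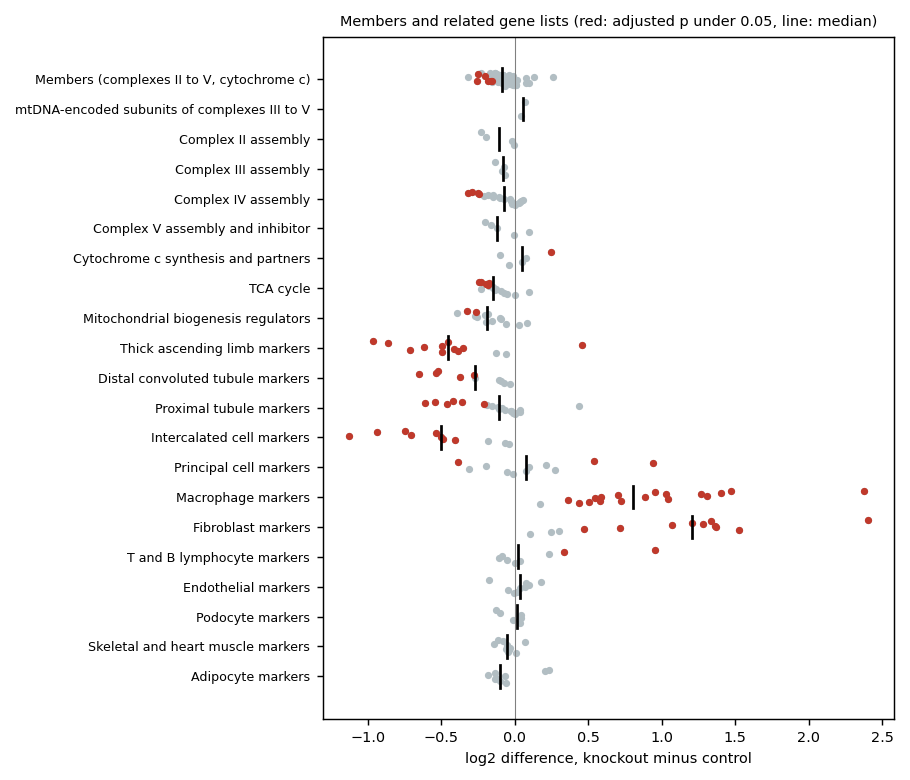
Log2 differences, knockout minus control, of the 52 members and of each related list, 1 dot for each gene, with red for an adjusted p under 0.05 and a line at the list's median. The members sit close to 0 with a median of -0.09, between thick ascending limb and intercalated cell markers on the left and macrophage and fibroblast markers on the right.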

How the data were processed

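Expression was deposited in log2 units for each transcript cluster of the Affymetrix arrays, computed by RMA on build mm10, per the submitters' processing notes. RNA was extracted with the RNeasy Mini Kit, and 500 ng of it was labelled with the Ambion WT Expression kit, per the labels. Software versions were not given in the sources used here. The number of arrays limits the precision.

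Of 72688 rows, 30604 had 1 gene symbol in the platform annotation, 2146 several and 39938 none. Symbols were updated through Entrez identifiers for 827 rows, and rows of 1 gene were averaged (57 rows for the 52 members). Knockouts were compared with controls by limma 3.58.1 in R 4.3.3 (lmFit, eBayes with trend), two-sided, with Benjamini-Hochberg adjustment over all genes, no filter and no covariate. Single members were also tested by a two-sided exact permutation test (252 splits, smallest p 0.00794). The procedure was tested on simulated data in which genes varied independently. Its pass criterion covered only differences larger than those of any member. Python 3.11.15, pandas 2.3.3, scipy 1.17.1 and matplotlib 3.10.9 were used. Levels as a percent of control are computed from log2 differences.

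Alternatives were the brightest row per gene, quantile normalisation, array median centring, only genes above the median level, no variance trend, array weights, a replicate block, rows with several symbols, each kidney left out in turn and, chosen after seeing the data, rows on the gene's own chromosome. Replicate numbers were not taken to pair the kidneys. Members, lists and motifs were chosen with earlier results of these data known. Named members were the up to 6 with the smallest p in each complex, isoforms, copies and further genes by ranges or differences. From each related list up to 3 called genes with the smallest p were named, otherwise the 1 with the smallest p. The labels do not state separate litters.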

Additional observations from a re-analysis of the deposited data

Results flagged for a closer look

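In each group of 5 kidneys the highest and the lowest value of every member were set against Dixon's 95% critical value of 0.71, which chance passes in about 1 in 20 groups. Of 104 groups of values, 6 held a kidney that stood apart. Cox6b2 was lowest in knockout 1 at 7.38, with the next value at 7.50. Cox8a was lowest in knockout 3 at 11.45, with the next at 11.68, and Cox7c was lowest in the same kidney at 8.44, with the next at 8.48. Atp5j2 was lowest in knockout 1 at 6.98, with the next at 7.02, and among controls it was lowest in control 1 at 6.95, with the next at 7.01. Atp5b was lowest in control 3 at 11.66, with the next at 11.70, and this value still lay above all knockouts. None of these 5 genes was among those that fell.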

How the results depend on the processing

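Of the 6 genes that fell, all kept their sign under the 19 alternatives and Atp5sl alone passed under every one. A further 10 members passed under at least 1 alternative. The number of members called lower was 16 with quantile normalisation (complexes II, III and IV then held 3, 4 and 3), 1 with array median centring (0, 0 and 1 in complexes III, IV and V) and 2 to 9 with 1 kidney left out (complex II 0 to 2, complex IV 0 to 2, complex V 1 to 4). Among genes above the median level complex II held 1 and complex IV 2, and with array weights complex II held 1. Over all genes, 437 to 1470 were called lower with 1 kidney left out. The cause of these shifts was not tested.

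A replicate block on the numbers in the titles gave 3 members called lower, 0 in complex IV and 2 in complex V, and Cox4i1, Atp5f1 and Atp5k then missed the threshold. Deviations of same-numbered kidneys correlated at 0.25, 0.31, 0.10, -0.08 and 0.19, and 4 of 5 knockouts correlated best with the control of their own number. The labels state no pairing, so the numbers were not taken to pair the kidneys, and these correlations do not settle it.

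Signs reversed in 16 members, none of them called. The log2 difference of Atp5d was 0.0165 with its brightest row. The log2 difference of Cycs was 0.00315 on its own chromosome. Under quantile normalisation, the log2 difference of Atp5j was -0.00679 and the log2 difference of Cox6a1 was -0.000173. With array weights, the log2 difference of Atp5j was -0.0060, the log2 difference of Cox8a was 0.0139 and the log2 difference of Atp5c1-ps was 0.00321. With 1 kidney left out, the differences ranged from -0.0274 to 0.0443 for Cox8a, from -0.00567 to 0.0209 for Atp5j2, from -0.0276 to 0.025 for Atp5j, from -0.0339 to 0.0383 for Atp5c1-ps, from -0.0544 to 0.00766 for Cox6b1, from -0.0186 to 0.00597 for Cox7c, from -0.0539 to 0.0271 for Atp5md, from -0.097 to 0.0133 for Cox7b2, from -0.0232 to 0.0465 for Cox4i2, from -0.0592 to 0.0136 for Atp5l-ps1, from -0.0752 to 0.00797 for Uqcr10, from -0.0311 to 0.0068 for Uqcrb and from -0.0539 to 0.00981 for Atp5h. Cox7b2, Cox8b and Cox8c, dim beside the negative controls, have no value among genes above the median level.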
